A study of Mus musculus with 18 samples.

Results

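Amino acid catabolism enzymes take apart the amino acids that are not used for protein. The liver does much of this work: hepatocytes remove the nitrogen for urea synthesis and pass the carbon skeletons to the citric acid cycle, to glucose and to ketone bodies. The breakdown of tyrosine, tryptophan, histidine and methionine takes place mainly there, while the nitrogen of the branched-chain amino acids is mostly removed in muscle and their keto acids are oxidised in both organs. Many of these genes are known to respond to glucagon, glucocorticoids and fasting.

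Here 42 genes of these enzymes, listed by symbol, were followed through liver RNA-seq of 18 mice. All 42 were among the 35441 genes of the count table, and all 42 were among the 14533 genes that passed the filter of more than 100 reads summed over the 18 libraries. The lowest member had 7659 reads in that sum. The members fall into 10 roles, which are tyrosine with 4 genes, tryptophan with 5, lysine with 2, branched-chain amino acids with 11, propionyl-CoA with 3, serine and glycine with 4, methionine and homocysteine with 6, proline and ornithine with 3, histidine with 3, and a beta-amino acid aminotransferase with 1.

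The study compared male WT mice, Lipa-/- mice and Lipa-/- mice injected with rAAV8.hAAT.LIPA, with 3 mice per group at 12-weeks and 3 at 34-weeks post-injection, times that the labels give as 3 and 8 months. Lipa encodes lysosomal acid lipase, and its loss causes storage of cholesteryl esters and triglycerides in the liver and other organs. In the Lipa-/- mice, exon 4 had been deleted by a Cre recombinase under the CMV promoter, which acts in all tissues, and all mice were on the C57/BL6N background, with littermates as controls. The vector carries human LIPA under the hepatocyte-specific hAAT promoter and was given through the tail vein at an age of 10 to 12 weeks, so the other cells of the treated mice still lack a working Lipa gene of their own. WT and Lipa-/- mice carry the label of no treatment, and the dose of the sequenced mice is not named in the labels. The study's methods state that most untreated Lipa-/- mice of the late time point were killed at predefined endpoints before its end, so the age at death in that group can differ from that of the other groups.

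Between 17527824 and 25833059 reads per mouse were assigned to genes, and 3 reads corresponded to 0.0946 to 0.291 CPM. CPM are read counts scaled to the depth of the library with TMM, a factor per library that makes most genes equal on average, and the TMM factors ranged from 0.587 to 1.69. Levels below are CPM per mouse in the order of the mouse numbers (WT 1, 2, 3 at both times; Lipa-/- 5, 8, 9 at 12-weeks and 4, 5, 6 at 34-weeks; treated 10, 11, 12 at 12-weeks and 9, 11, 12 at 34-weeks). Log2 fold changes carry the SE of the edgeR fit, with n = 3 mice per group, and p values were adjusted by the Benjamini-Hochberg method over all 14533 genes. A gene was said to rise or fall where the adjusted p was under 0.05, and the study's own call also asks for more than a 2-fold change. Murine Lipa was at 202, 267 and 241 CPM in WT, 16.7, 33.4 and 24.3 in Lipa-/- and 32.6, 31 and 37 in treated mice at 12-weeks. Human LIPA ranged from 523 to 2746 CPM in the 6 treated livers and reached 0.906 CPM at most in the other 12. Treated mouse 10 of the 12-week group stood apart from mice 11 and 12 in several members. The 12-week calls against WT or Lipa-/- livers that were lost without it are named.

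Lipa-/- livers were compared with WT livers to see how the loss of the lipase changes these enzymes. At 12-weeks, 34 of the 42 members fell, none rose in the edgeR test of the counts and 8 did not pass it. In TPM, however, every Lipa-/- liver was above every WT liver at 12-weeks for Bckdhb and Sdsl. No share of all genes with that pattern is given. At 34-weeks, 41 fell, none rose, and Sdsl did not pass the test. The median log2 fold change of the members was -1.35 at 12-weeks and -2.22 at 34-weeks, against 0.02 and -0.03 for all tested genes. The TMM factors of the groups did not overlap. They were 1.165 to 1.229 in Lipa-/- and 0.809 to 0.924 in WT livers at 12-weeks. At 34-weeks they were 1.374 to 1.69 and 0.806 to 1.067. Medians with other scalings, which are smaller in size with total reads, are given in a later section. At 34-weeks the values ran from -4.28 for Hal, a 19.4-fold lower level, to -0.20 for Sdsl. Of all tested genes, 16.3% fell and 22.9% rose at 12-weeks, and 23.5% fell and 23.8% rose at 34-weeks.

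By the study's call, 31 members fell at 12-weeks and 40 at 34-weeks, where 9.06% and 15.7% of all genes did. Every Lipa-/- liver lay below every WT liver for 38 members at 12-weeks and for 40 at 34-weeks, a pattern that 24.1% and 29.8% of all genes showed. DESeq2 called 35 and 40 members lower. The fitted value was lower at 34-weeks than at 12-weeks for 41 members, all but Tat. The edgeR test of that difference called none of them, and 0.0619% of all genes passed it. Of the members, 24 had an unadjusted p under 0.05, and DESeq2 called 2. The counts of 41, 24 and 2 carry no share over all genes, so they do not set the members apart. Lipa-/- mouse 6 of the 34-week group had the smallest loss, with a median log2 ratio to WT of -1.69 over the members, against -2.58 in mouse 4 and -2.32 in mouse 5.

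Markers of other cells moved in the same livers, not all in 1 direction. The summed TPM of 5 endothelial markers was 49.7 to 71.3 in WT and 25.4 to 40.4 in Lipa-/- livers at 12-weeks. At 34-weeks it was 74.9 to 81.4 and 35.2 to 72.8. The sum of 5 T cell markers was higher in Lipa-/- livers at both times without overlap. That of 4 B cell markers was so at 12-weeks only. The summed TPM of 10 macrophage markers, of which 9 rose at 12-weeks and 7 at 34-weeks, was 77.4 to 180.8 in WT and 3551 to 8384 in Lipa-/- livers at 12-weeks, and 167.8 to 342.4 and 4042 to 7102 at 34-weeks. The sum of 6 stellate cell markers, of which 5 rose, was 84.6 to 111.5 in WT and 620.0 to 1394 in Lipa-/- livers at 34-weeks. The sum of 6 neutrophil markers was 3.38 to 6.14 in WT, with 2 of them at 0 in these WT mice, and 466 to 5857 in Lipa-/- livers at 12-weeks, and that of 4 cholangiocyte markers was 1.87 to 5.25 and 26.9 to 36.5 at 34-weeks. In treated livers at 34-weeks the neutrophil sum had a median of 11.8 and reached 2309 in mouse 12. The sum of the 9 hepatocyte markers found was 65340 to 82700 TPM in WT and 70040 to 81330 in Lipa-/- livers at 12-weeks, and 74150 to 86930 and 49740 to 79750 at 34-weeks. The hepatocyte markers had a median log2 fold change of -0.18 at 12-weeks, with 3 of 9 lower, and of -0.80 at 34-weeks, with 5 lower and 1 higher. In bulk liver RNA, fewer hepatocytes and less mRNA per hepatocyte cannot be told apart. When the libraries were scaled to the hepatocyte markers, the members' medians were -1.02 and -1.49, with 29 and 36 members lower.

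**Figure D1:**
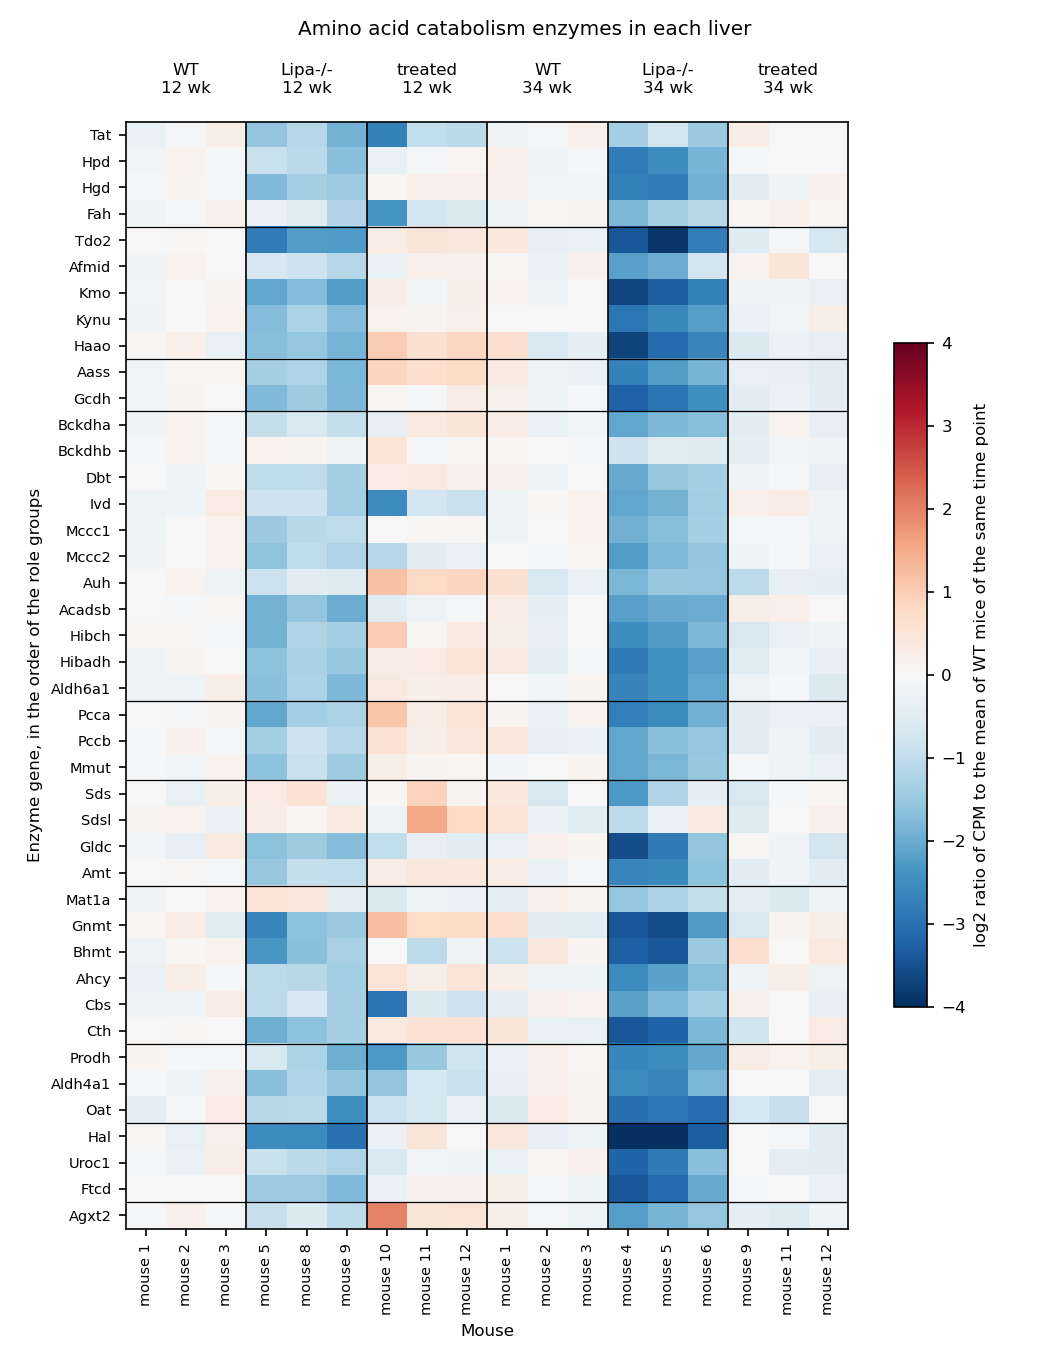
Log2 ratio of the CPM of each of the 42 enzymes (rows, with lines between the role groups) to the mean of the 3 WT mice of the same time point, for each of the 18 mice (columns). The 6 Lipa-/- columns are below WT for most rows, and the median ratio of a Lipa-/- mouse lies between -1.11 and -2.58.

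The tyrosine pathway runs from Tat, the aminotransferase that opens it, through Hpd and Hgd to Fah, which makes fumarate and acetoacetate. All 4 genes fell at 34-weeks and 3 of 4 at 12-weeks. Hgd, which opens the ring of homogentisate, was at 651, 713 and 641 CPM in the WT livers at 12-weeks, 196, 267 and 246 in the Lipa-/- livers and 686, 762 and 768 in the treated livers. At 34-weeks, its level was 731, 596 and 592 CPM in WT, 99.1, 91.9 and 169 in Lipa-/- and 473, 580.1 and 718 in treated mice. No Lipa-/- liver reached the lowest WT liver, and the log2 fold change against WT was -1.50 ± 0.25, adjusted p = 0.000155 at 12-weeks and -2.41 ± 0.26, adjusted p = 1.46e-06 at 34-weeks. Hpd, the dioxygenase that makes homogentisate, was at 1798, 2169.9 and 1910.1 CPM in the WT livers at 12-weeks, 1047, 935 and 608 in the Lipa-/- livers and 1608, 1911 and 2060.0 in the treated livers. The 34-week livers had 1979, 1579.5 and 1619.6 CPM in WT, 247, 309 and 475 in Lipa-/- and 1627, 1743 and 1761 in treated mice. It fell by 1.18 (adjusted p = 0.00219) and by 2.33 (adjusted p = 4.52e-06) on the log2 scale. Tat had log2 fold changes of -1.50 and -1.15, and Fah fell only in the 34-week test, with -0.57 and -1.40. The calls of Tat and Fah at 34-weeks were lost with total reads or hepatocyte markers as the scale and with TPM, and that of Tat also without Lipa-/- mouse 4 or mouse 6, and at 12-weeks the call of Tat was lost with TPM (-1.06).

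Tryptophan breakdown through kynurenine held the role group with the lowest median at both times, -1.70 and -3.08. All 5 of its genes fell at both times. Tdo2, the dioxygenase that opens the indole ring and commits tryptophan to the pathway, was at 1380.1, 1441 and 1382 CPM in the WT livers at 12-weeks, 200.5, 297 and 293 in the Lipa-/- livers and 1709, 1954 and 1867 in the treated livers. Later, at 34-weeks, the levels were 1670.2, 988 and 1060.4 CPM in WT, 119, 82.9 and 181 in Lipa-/- and 868, 1206 and 766 in treated mice. Its level was 5.31-fold lower than in WT at 12-weeks (log2 fold change -2.41 ± 0.31, adjusted p = 1.34e-05) and 9.71-fold lower at 34-weeks (-3.28 ± 0.32, adjusted p = 6.50e-07). The groups of WT and Lipa-/- mice did not overlap at either time. In GRCm39 the gene lies on chromosome 3 from 81864248 to 81883509 on the minus strand, with 12 exons. Kmo, the mitochondrial hydroxylase that acts on kynurenine, was at 277, 291 and 323 CPM in the WT livers at 12-weeks, 70.1, 88.5 and 62.8 in the Lipa-/- livers and 361, 275 and 356 in the treated livers. Livers taken at 34-weeks held 321, 260.1 and 285 CPM in WT, 22.7, 29.5 and 44.5 in Lipa-/- and 264, 254 and 236 in treated mice. The log2 fold change was -2.01 ± 0.24, adjusted p = 5.51e-06 and -3.16 ± 0.25, adjusted p = 1.11e-07. Haao, which makes the precursor of quinolinate, had -1.70 and -3.08, Kynu, the kynureninase, had -1.56 and -2.53, and Afmid, the formamidase, had -0.87 and -1.49. The 12-week call of Afmid was lost with total reads (-0.39), hepatocyte marker scaling (-0.52) and TPM (-0.43) and without Lipa-/- mouse 8 or 9 or WT mouse 2 or 3. In the annotation, exons of Ctso on the opposite strand cover 56.0% of the Tdo2 transcript, and exons of Tk1 and Gm20708 cover 71.3% of that of Afmid, so with a library strand that no source names their reads are uncertain.

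**Figure D2:**
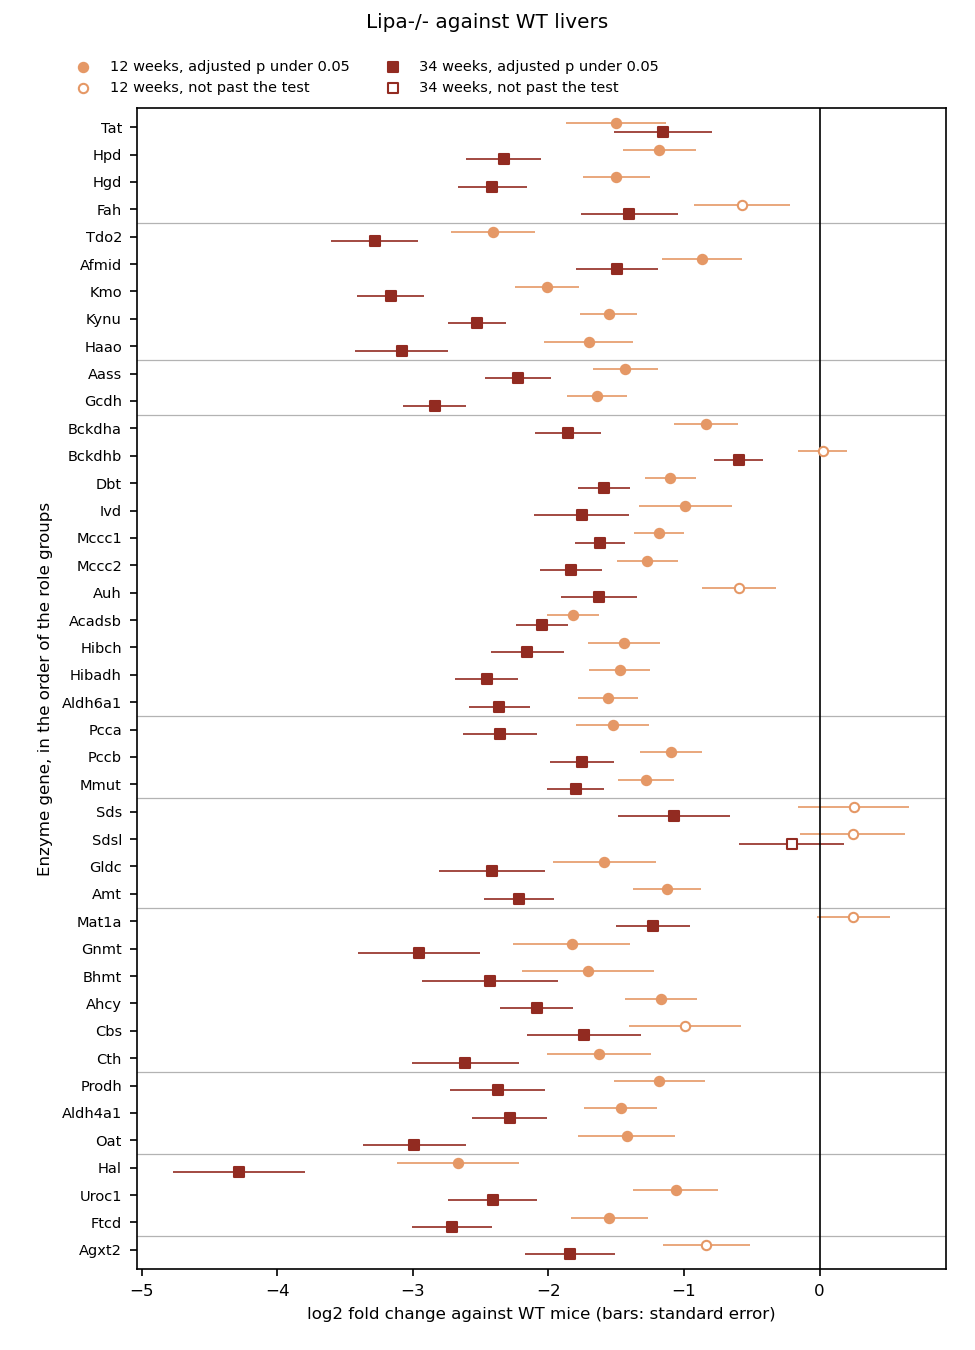
Log2 fold change of Lipa-/- against WT livers with its standard error (edgeR, 3 mice per group) for each enzyme at 12-weeks (circles) and 34-weeks (squares), filled where the adjusted p was under 0.05. Of the 34-week symbols 41 are filled, all left of 0, and Hal lies lowest at -4.28.

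Both lysine genes fell at both times. Gcdh, the glutaryl-CoA dehydrogenase shared by lysine and tryptophan, was at 519, 612 and 561 CPM in the WT livers at 12-weeks, 168, 212 and 164 in the Lipa-/- livers and 580.0, 543 and 686 in the treated livers. At 34-weeks, its level was 655, 511 and 542 CPM in WT, 60.1, 74.3 and 104 in Lipa-/- and 419, 488 and 429 in treated mice. Its log2 fold change was -1.64 ± 0.22, adjusted p = 2.41e-05 and -2.84 ± 0.23, adjusted p = 1.53e-07, without overlap between WT and Lipa-/- mice. Aass, the synthase that starts lysine breakdown in mitochondria, was at 284, 316 and 325 CPM in the WT livers at 12-weeks, 122, 132 and 87.7 in the Lipa-/- livers and 559, 493 and 523 in the treated livers. The 34-week livers had 377, 252 and 245 CPM in WT, 44.4, 62.2 and 80.5 in Lipa-/- and 237, 234 and 213 in treated mice. The difference from WT was -1.43 ± 0.24, adjusted p = 0.000172 and -2.22 ± 0.25, adjusted p = 2.19e-06. In CPM, treated livers at 12-weeks were all above the WT livers for Aass, a pattern for which no share over all genes is given. In TPM they overlapped, at 73.2 to 93.6 in treated and 72.2 to 95.6 in WT livers.

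For the branched-chain amino acids, 9 of 11 genes fell at 12-weeks and all 11 at 34-weeks, with medians of -1.18 and -1.83. Hibadh, which oxidises the valine intermediate 3-hydroxyisobutyrate, was at 344, 413 and 379.8 CPM in the WT livers at 12-weeks, 123, 153 and 133 in the Lipa-/- livers and 469, 479 and 542 in the treated livers. Later, at 34-weeks, the levels were 475, 288 and 352 CPM in WT, 52.9, 68.8 and 81.6 in Lipa-/- and 265, 341 and 296 in treated mice. It had a log2 fold change of -1.47 ± 0.22, adjusted p = 6.55e-05 and -2.46 ± 0.23, adjusted p = 4.64e-07. Aldh6a1, the next enzyme of the valine branch, was at 336, 340.4 and 444 CPM in the WT livers at 12-weeks, 117, 155 and 108 in the Lipa-/- livers and 481, 447 and 458 in the treated livers. Livers taken at 34-weeks held 410.4, 382 and 445 CPM in WT, 64.8, 77.3 and 98.8 in Lipa-/- and 359, 388 and 274 in treated mice. The values against WT were -1.56 ± 0.22, adjusted p = 3.43e-05 and -2.36 ± 0.23, adjusted p = 5.60e-07, and each Lipa-/- liver was below each WT liver for both genes. Hibch, which acts just before them, had -1.44 and -2.15, and exons of an opposite-strand gene cover 39.0% of its transcript. Acadsb, a short-chain acyl-CoA dehydrogenase of the isoleucine branch, had -1.82 and -2.05.

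The branched-chain keto acid dehydrogenase, the complex that commits the keto acids to oxidation, was measured by subunit. Its E1 alpha subunit Bckdha had log2 fold changes of -0.84 and -1.85, and its E2 core Dbt had -1.10 and -1.59, all past the test. The 12-week call of Bckdha was lost with total reads (-0.37), hepatocyte marker scaling (-0.50) and TPM (-0.37). Bckdhb, the E1 beta subunit, was at 65.6, 76.3 and 67.8 CPM in WT and 77.1, 74.8 and 61.1 in Lipa-/- livers at 12-weeks, which overlap. Its log2 fold change was 0.02 ± 0.18, adjusted p = 0.935. In TPM it was higher in every Lipa-/- liver at that time, at 71 to 114.1 against 46.7 to 56.2 in WT. At 34-weeks it fell by 0.60 on the log2 scale (adjusted p = 0.0124), from 81.9, 80.8 and 77.3 CPM to 45, 57.3 and 56.4, a direction that turned to 0.03 with total reads, 0.16 with hepatocyte marker scaling and 0.36 with TPM, and the call was also lost in DESeq2 and without Lipa-/- mouse 4. Of the leucine branch, Ivd had -0.99 and -1.75, with a 12-week call that was lost with total reads (-0.53), hepatocyte marker scaling (-0.65) and TPM (-0.39) and without Lipa-/- mouse 8 or 9 or WT mouse 3. The methylcrotonyl-CoA carboxylase subunits Mccc1 and Mccc2 had -1.18 and -1.62, and -1.27 and -1.83, and Auh, the hydratase, had -0.60 (adjusted p = 0.0936) and -1.63 (adjusted p = 0.000147). On the TPM scale the 12-week value of Mccc1 turned to 0.07 and that of Mccc2 was -0.28, both calls were lost, that of Mccc1 also in DESeq2 (-0.41), and so were the 34-week calls of Ivd and Mccc1 (-0.94 and -0.48).

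All 3 genes that carry propionyl-CoA, the shared product of valine, isoleucine, methionine and threonine, to succinyl-CoA fell at both times. Pcca, the biotin-bearing subunit of propionyl-CoA carboxylase, was at 93.1, 89.7 and 102 CPM in the WT livers at 12-weeks, 22.6, 36.8 and 39.5 in the Lipa-/- livers and 205, 116 and 134 in the treated livers. At 34-weeks, its level was 105, 79.9 and 109 CPM in WT, 14.9, 16.7 and 26 in Lipa-/- and 71.7, 81.1 and 82.4 in treated mice. Its log2 fold change was -1.53 ± 0.27, adjusted p = 0.00025 and -2.36 ± 0.27, adjusted p = 3.54e-06. Mmut, the cobalamin-dependent mutase, was at 149, 145 and 173 CPM in the WT livers at 12-weeks, 50.1, 84.2 and 57.9 in the Lipa-/- livers and 183, 168 and 165 in the treated livers. The 34-week livers had 143, 153 and 167 CPM in WT, 36.3, 43 and 53.7 in Lipa-/- and 148, 139 and 127 in treated mice. It changed by -1.28 ± 0.20, adjusted p = 0.000114 and -1.80 ± 0.21, adjusted p = 3.37e-06, again without overlap with WT. The partner subunit Pccb had -1.09 and -1.75. On the TPM scale Pccb had -0.18 and -0.34 and Pcca had -0.37 at 12-weeks, and these 3 calls were lost.

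Serine and glycine enzymes split into those of glycine cleavage, which fell, and the serine dehydratases, which mostly did not. Gldc, the decarboxylase of the glycine cleavage system, was at 164, 141 and 226 CPM in the WT livers at 12-weeks, 57.4, 66.6 and 52.9 in the Lipa-/- livers and 89.9, 141 and 133 in the treated livers. Later, at 34-weeks, the levels were 158, 217 and 208 CPM in WT, 16.8, 27.5 and 65 in Lipa-/- and 199, 176 and 116 in treated mice. The log2 fold change was -1.59 ± 0.38, adjusted p = 0.00318 and -2.42 ± 0.39, adjusted p = 8.54e-05. Amt, the aminomethyltransferase of the same system, was at 60.9, 63.2 and 59 CPM in the WT livers at 12-weeks, 21.2, 31.6 and 31.1 in the Lipa-/- livers and 74.3, 82.9 and 81.6 in the treated livers. Livers taken at 34-weeks held 81.3, 55.3 and 62.1 CPM in WT, 10.5, 11 and 21.1 in Lipa-/- and 48.6, 60.6 and 49.2 in treated mice. It changed by -1.13 ± 0.25, adjusted p = 0.00189 and -2.22 ± 0.26, adjusted p = 3.62e-06. Sds, which turns serine into pyruvate, had 0.25 (adjusted p = 0.66) and -1.07 (adjusted p = 0.0412). Its related gene Sdsl had 0.24 (adjusted p = 0.654) and -0.20 (adjusted p = 0.696). In TPM at 12-weeks, Sdsl was at 21.2 to 28.0 in Lipa-/- and 14.1 to 15.4 in WT livers, without overlap. At 34-weeks Sds ranged from 36.1 to 137.8 CPM in Lipa-/- and from 111.8 to 242.1 in WT livers, which overlap, and its call was lost without Lipa-/- mouse 4 or 5 or WT mouse 1 or 3, with total reads (-0.45), hepatocyte marker scaling (-0.42), TPM (-0.52) or upper quartile scaling (-0.90), and with only the groups compared. The genes Sds and Sdsl are similar in sequence, and opposite-strand exons cover 41.1% of the Sds transcript.

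In the methionine and homocysteine group, 4 of 6 genes fell at 12-weeks and all 6 at 34-weeks. Gnmt, the glycine methyltransferase that consumes S-adenosylmethionine and the member with the highest mean TPM in WT livers at 12-weeks, was at 2697, 3181 and 1852 CPM in the WT livers at 12-weeks, 417, 834 and 929 in the Lipa-/- livers and 5993, 4273 and 4374 in the treated livers. At 34-weeks, its level was 3242, 1563 and 1486 CPM in WT, 198, 179 and 436 in Lipa-/- and 1339, 2245 and 2505 in treated mice. It was 3.55-fold lower at 12-weeks (log2 fold change -1.83 ± 0.43, adjusted p = 0.00296) and 7.74-fold lower at 34-weeks (-2.95 ± 0.45, adjusted p = 5.09e-05). Cth, the lyase that releases cysteine, was at 599, 622 and 603 CPM in the WT livers at 12-weeks, 156, 193 and 242 in the Lipa-/- livers and 798, 910.2 and 906 in the treated livers. The 34-week livers had 695, 405 and 404 CPM in WT, 47.6, 55 and 143 in Lipa-/- and 288, 502 and 623 in treated mice. Its log2 fold change was -1.63 ± 0.38, adjusted p = 0.00287 and -2.61 ± 0.40, adjusted p = 4.83e-05, and Lipa-/- mouse 6 was the highest of its group for both Gnmt and Cth. Bhmt, which remethylates homocysteine with betaine, had -1.71 and -2.43, and Ahcy, the hydrolase before it, had -1.17 and -2.09. Mat1a, the liver S-adenosylmethionine synthetase, was at 1296, 1393 and 1574 CPM in WT and 2053, 1925 and 1088 in Lipa-/- livers at 12-weeks, which overlap, with 0.25 ± 0.27, adjusted p = 0.495. At 34-weeks it was at 1719.5, 2506 and 2364 and 754, 913 and 1146 CPM, with -1.23 ± 0.27, adjusted p = 0.00138, a call lost with total reads, hepatocyte marker scaling or TPM. Cbs, which makes cystathionine, had -0.99 (adjusted p = 0.0679) and -1.73 (adjusted p = 0.00277). On the TPM scale the calls of Bhmt at 12-weeks (-1.30) and of Cbs at 34-weeks (-1.14) were lost.

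The 3 proline and ornithine genes fell at both times. Oat, the ornithine aminotransferase, was at 502, 646 and 838 CPM in the WT livers at 12-weeks, 306, 315 and 120.1 in the Lipa-/- livers and 364, 405 and 539 in the treated livers. Later, at 34-weeks, the levels were 607, 1154 and 977 CPM in WT, 112, 123 and 110.5 in Lipa-/- and 561, 478 and 906 in treated mice. Its log2 fold change was -1.42 ± 0.36, adjusted p = 0.00471 and -2.99 ± 0.38, adjusted p = 8.46e-06, and Lipa-/- mouse 9 was the lowest at 12-weeks. Aldh4a1, which turns the shared semialdehyde into glutamate, was at 355, 347 and 433 CPM in the WT livers at 12-weeks, 119.8, 165 and 126 in the Lipa-/- livers and 127, 235 and 205 in the treated livers. Livers taken at 34-weeks held 334, 471 and 449.6 CPM in WT, 73.9, 67.1 and 117 in Lipa-/- and 423, 424 and 323 in treated mice. It changed by -1.47 ± 0.27, adjusted p = 0.000395 and -2.28 ± 0.28, adjusted p = 5.36e-06, with 46.9% of its transcript covered by exons of the same-strand gene Gm21969. Prodh, the proline dehydrogenase, had -1.18 and -2.37. At 12-weeks the call of Prodh was lost with total reads (-0.71), hepatocyte marker scaling (-0.84) and TPM (-0.75), and that of Oat with total reads (-0.97) and TPM (-1.05).

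Histidine breakdown held the member with the lowest fold change at both times. Hal, the ammonia-lyase that starts it, was at 462, 361 and 512 CPM in the WT livers at 12-weeks, 77.2, 76.8 and 56.7 in the Lipa-/- livers and 378, 624 and 442 in the treated livers. At 34-weeks, its level was 559, 329.7 and 362 CPM in WT, 8.8, 12.8 and 42.8 in Lipa-/- and 415, 403 and 305 in treated mice. The log2 fold change was -2.66 ± 0.45, adjusted p = 0.000192 and -4.28 ± 0.49, adjusted p = 2.82e-06, and the gene lies on chromosome 10 of GRCm39 from 93324629 to 93355166 on the plus strand, with 20 exons. The highest Lipa-/- liver at 34-weeks, mouse 6 with 42.8 CPM, was below the lowest WT liver with 329.7. Ftcd, which passes the formimino group to tetrahydrofolate, was at 459, 448 and 443 CPM in the WT livers at 12-weeks, 163, 165 and 133 in the Lipa-/- livers and 373, 504 and 502 in the treated livers. The 34-week livers had 486, 394 and 371 CPM in WT, 40, 49.3 and 102 in Lipa-/- and 402, 409 and 347 in treated mice. Its difference from WT was -1.55 ± 0.28, adjusted p = 0.000374 and -2.71 ± 0.29, adjusted p = 1.88e-06. Uroc1, the urocanase between them, had -1.06 and -2.41, and its 12-week call was lost with total reads (-0.60), hepatocyte marker scaling (-0.72) and TPM (-0.58) and without WT mouse 3. Agxt2, a mitochondrial aminotransferase that acts on beta-aminoisobutyrate and dimethylarginines, was at 179, 214 and 179 CPM in the WT livers at 12-weeks, 101, 127 and 93.4 in the Lipa-/- livers and 749.6, 266 and 271 in the treated livers. Later, at 34-weeks, the levels were 214, 172 and 159 CPM in WT, 39.8, 50.1 and 62.2 in Lipa-/- and 142, 127 and 161 in treated mice. No Lipa-/- liver overlapped with WT, but at 12-weeks the fit did not pass (-0.83 ± 0.32, adjusted p = 0.0505), while at 34-weeks it did (-1.84 ± 0.33, adjusted p = 0.000244).

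**Figure D3:**
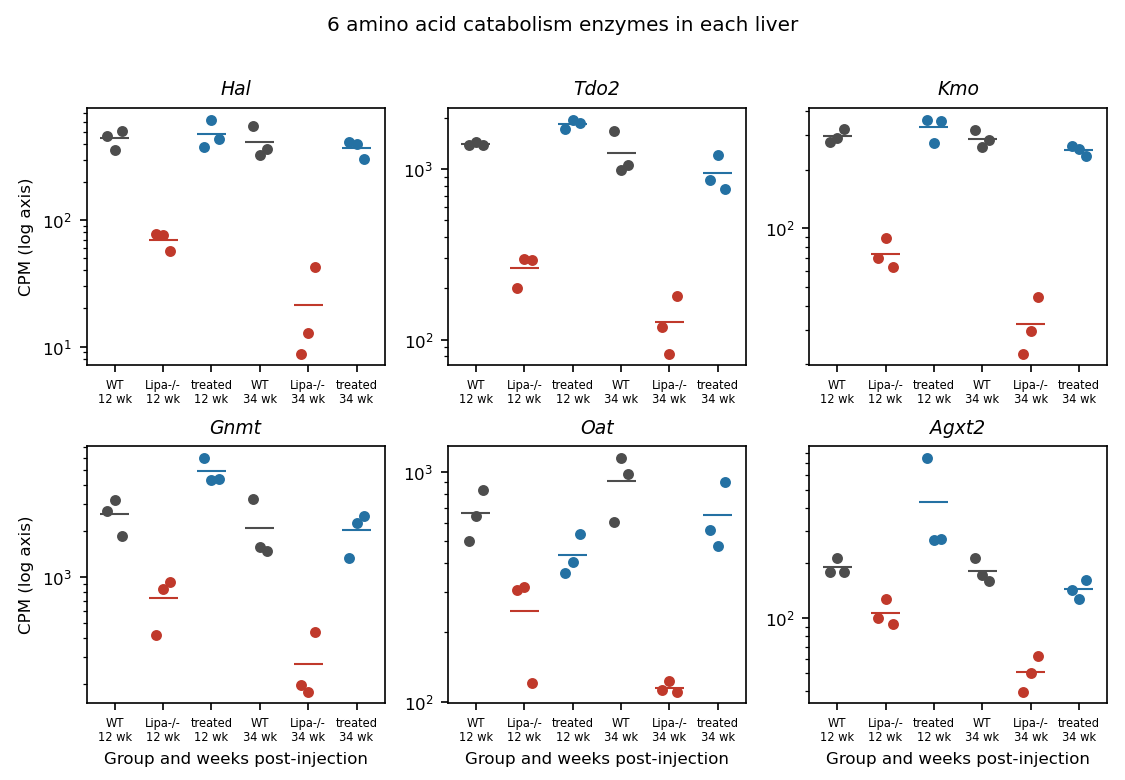
CPM of 6 enzymes on log axes in each of the 18 mice (points) with the mean of each group of 3 (lines), by group and weeks post-injection. For Hal the Lipa-/- livers at 34-weeks lie between 8.80 and 42.8 CPM, below all WT livers, and for Agxt2 treated mouse 10 at 12-weeks lies at 749.6 CPM, above the other treated mice.

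The 250 bases before their RefSeq start sites (GRCm38.p6) were searched on both strands for short motifs. A promoter entry matched 35 of the 42 genes, with 39 start sites. The letters CCAAT were in 61.5% of the members' windows and in 33.8% of the 32851 windows of all genes, and GGGCGG in 38.5% and 32.7%. The C/EBP-type letters TTGCNNAA were in 12.8% and 9.56%, TATAAA in 15.4% and 12.4%, the HNF4-type CAAAGTCCA in 5.1% (both start sites of Agxt2) and 0.384%, and the CRE letters TGACGTCA in none, against 1.55%. No match of the TATA-type, CCAAT, C/EBP-type and HNF4-type letters overlapped a match of another of these motifs in the members, while in Mccc2 a pair of CCAAT matches on opposite strands shared bases. Shown 5′ to 3′ are the windows of Hal and Hgd, the members that hold the TATA-type, CCAAT and C/EBP-type letters together, and of Gnmt, which of the letters searched holds only CCAAT. They lie at chr10:93488518-93488767 (plus strand), chr16:37579903-37580152 (plus strand) and chr17:46729166-46729415 (minus strand), and capitals mark the matches on either strand.
Hal: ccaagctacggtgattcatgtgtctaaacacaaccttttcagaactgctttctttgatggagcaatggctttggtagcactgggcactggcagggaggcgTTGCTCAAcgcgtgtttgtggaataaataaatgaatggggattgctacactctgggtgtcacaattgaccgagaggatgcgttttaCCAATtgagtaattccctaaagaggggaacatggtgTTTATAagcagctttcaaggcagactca
Hgd: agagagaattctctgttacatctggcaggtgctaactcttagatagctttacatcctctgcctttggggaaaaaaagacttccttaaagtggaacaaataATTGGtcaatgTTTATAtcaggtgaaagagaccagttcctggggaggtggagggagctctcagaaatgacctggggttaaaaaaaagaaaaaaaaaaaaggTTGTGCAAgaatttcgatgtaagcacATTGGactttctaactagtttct
Gnmt: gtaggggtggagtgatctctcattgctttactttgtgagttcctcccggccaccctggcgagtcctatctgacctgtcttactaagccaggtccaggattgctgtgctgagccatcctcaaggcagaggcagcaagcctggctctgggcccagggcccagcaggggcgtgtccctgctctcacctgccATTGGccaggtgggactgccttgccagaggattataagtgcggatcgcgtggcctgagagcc
In Hal the TATAAA match starts 28 bases before the start site and CCAAT 64 bases before it, with TTGCNNAA at 150 bases. In Hgd, TTGCNNAA starts at 49 bases and TATAAA at 139 bases before the start. A match is a description of letters and not of a bound site.

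rAAV8-treated Lipa-/- livers were compared with WT livers to see whether these enzymes differ after the gene transfer. At 34-weeks no member passed the test in edgeR, none did in DESeq2, and none had an unadjusted p under 0.05, while 0.22% of all genes passed in either direction. The log2 fold changes of the 42 members ran from -0.55 (Auh) to 0.39 (Bhmt), with a median of -0.16, and 35 were below 0. With each mouse left out, the members' median ranged from -0.21 to -0.09. Over all genes, split into terciles by GC content, the medians ran from -0.04 to 0.05. A share of all genes below 0 is not given. Hal, for example, was at 415, 403 and 305 CPM in treated and 559, 329.7 and 362 in WT livers, which overlap (log2 fold change -0.16 ± 0.42, adjusted p = 0.992). Every treated liver lay below every WT liver for 4 members, Aass, Gcdh, Bckdhb and Mccc2, a pattern that 4.11% of all genes showed, and none of the 4 passed the test. Gcdh, for instance, was at 419, 488 and 429 CPM in treated and 655, 511 and 542 in WT livers (-0.35 ± 0.22, adjusted p = 0.954). Tdo2 had -0.39 ± 0.29, adjusted p = 0.966, and Gnmt had -0.05 ± 0.42, adjusted p = 0.998. The SE of the members in this comparison ran up to 0.48.

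At 12-weeks, 6 members were lower and 3 higher than in WT livers, with a median of 0.14 over the members and of 0.06 over all genes, of which 17.5% fell and 19.4% rose. Prodh was at 206, 183 and 185 CPM in WT and 39.3, 67.6 and 109 in treated livers (log2 fold change -1.41 ± 0.34, adjusted p = 0.00746). Tat was at 1250.5, 1412 and 1805 and 227, 746 and 705 CPM (-1.41 ± 0.37, adjusted p = 0.00984). In both genes every treated liver was below every WT liver, and mouse 10 was the lowest. No share of all genes with this pattern is given. Ivd had -1.20, Cbs -1.13, Fah -1.04 and Aldh4a1 fell too (adjusted p = 0.011). The higher genes were Agxt2 at 749.6, 266 and 271 CPM against 179, 214 and 179 in WT (1.17 ± 0.33, adjusted p = 0.0133), Auh with 0.94 and Aass with 0.77. DESeq2 called 6 lower and 6 higher. Without treated mouse 10, 4 members passed, all lower, and without WT mouse 3 only 1 did. The higher calls lost without mouse 10 were Agxt2 (0.42, adjusted p = 0.171), Auh (0.73, adjusted p = 0.0918) and Aass (0.65, adjusted p = 0.084). Of the lower ones, Fah (-0.73, adjusted p = 0.0668) and Cbs (-0.76, adjusted p = 0.0713) were lost. On the TPM scale the split was 14 lower and 1 higher, with a median of -0.50 over the members and -0.25 over all genes. Scaling by total reads gave 9 lower and none higher, RLE scaling 6 and 5, and hepatocyte marker scaling 6 and 6.

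Beside these calls, the treated livers at 12-weeks had TMM factors of 0.587 to 0.759, against 0.809 to 0.924 in WT. Over all tested genes the median was 0.31 (log2) in the tercile of genes with the lowest GC content and -0.24 in that with the highest, and for the members in the same classes it was 0.29 and 0.05. The summed TPM of the hepatocyte markers was 30700 to 83520 and that of the macrophage markers 450.2 to 1133. With the GC and length trends removed, 8 members passed, and the calls of Aass (0.51, adjusted p = 0.0834), Auh (0.45, adjusted p = 0.0674), Cbs (-0.66, adjusted p = 0.161) and Aldh4a1 (-0.49, adjusted p = 0.0738) were lost. The part of the macrophage markers in the calls was not tested.

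**Figure D4:**
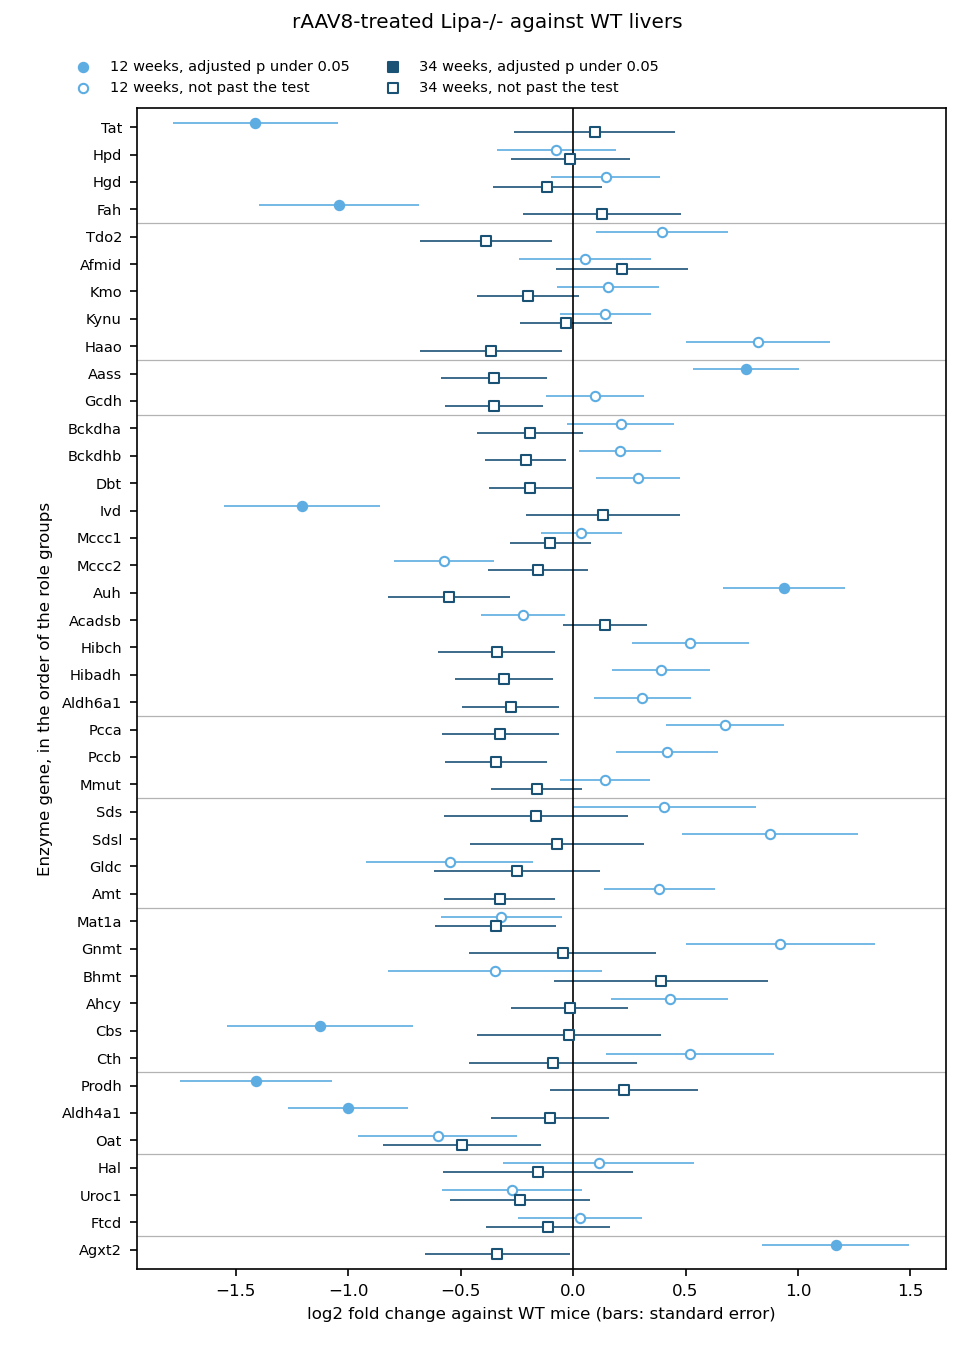
Log2 fold change of rAAV8-treated Lipa-/- against WT livers with its standard error (edgeR, 3 mice per group) for each enzyme at 12-weeks (circles) and 34-weeks (squares), filled where the adjusted p was under 0.05. At 12-weeks 9 symbols are filled, 6 left and 3 right of 0, and at 34-weeks none is.

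Against untreated Lipa-/- livers, 31 members were higher in treated livers at 12-weeks and 39 at 34-weeks, and none was lower. The medians were 1.47 and 2.05, against -0.19 and 0.03 over all genes, of which 23.8% and 19.6% were higher. From the lowest to the highest GC tercile, the 12-week median over all genes was 0.29, -0.23 and -0.75. For the members in the same classes it was 1.87, 1.44 and 0.92. By the study's call, 28 and 38 members were higher, where 16.2% and 12.8% of all genes were. Hal differed by 2.78 ± 0.45, adjusted p = 0.000132 at 12-weeks and 4.12 ± 0.48, adjusted p = 5.86e-06 at 34-weeks, Tdo2 by 2.81 ± 0.31, adjusted p = 5.67e-06 and 2.89 ± 0.32, adjusted p = 3.11e-06, and Gnmt by 2.75 ± 0.45, adjusted p = 0.000126 and 2.91 ± 0.45, adjusted p = 7.75e-05. At 34-weeks Bckdhb (0.39), Sds (0.91) and Sdsl (0.13) did not pass. At 12-weeks the members that did not pass were Tat, Fah, Bckdhb, Ivd, Sds, Sdsl, Mat1a, Cbs, Prodh, Aldh4a1 and Oat. The 12-week call of Bhmt was lost without treated mouse 10 (1.13, adjusted p = 0.0879), and also without treated mouse 12 or Lipa-/- mouse 5 or 8. These comparisons share the treated mice with those of treated against WT livers, and the Lipa-/- mice with those of Lipa-/- against WT livers. On the TPM scale the 12-week median was 0.25, against -0.67 over all genes, and 15 members were higher and 8 lower. Scaling by total reads gave 23 higher and 5 lower at 12-weeks, with a median of 0.59 against -1.05 over all genes. At 34-weeks none was lower on either scale.

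Between the time points, no member changed in WT livers by edgeR, where 0.33% of all genes did, DESeq2 called 0 and 1 had an unadjusted p under 0.05. In Lipa-/- livers, Hpd, Kmo, Kynu and Gcdh were lower at 34-weeks than at 12-weeks (log2 fold changes of -1.33, -1.19, -1.07 and -1.19), and 0.489% of all genes were lower. The members' median was -0.96, all 42 were below 0, 38 had an unadjusted p under 0.05, and DESeq2 called 22. These counts and this median carry no share or median over all genes, so they do not set the members apart. No member passed with total reads or hepatocyte marker scaling. The 4 calls depended on single mice: none remained without Lipa-/- mouse 5 or 8 of the 12-week group or mouse 4 or 5 of the 34-week group, and 21 members passed without mouse 6. In a direct test of whether the difference from WT changed between the times, no member passed, where 0.0619% of all genes did, and 6 passed without mouse 6. In treated livers, 11 members were lower and 6 higher at 34-weeks than at 12-weeks, with 21.4% and 23.9% of all genes. This split turned to 3 lower and 13 higher with total reads and to 1 lower and 23 higher on the TPM scale, where the median of all genes was 0.71 and 0.49, and 9 members passed without treated mouse 9 of the 34-week group. The difference from WT changed in 5 members, with 3 shifted down and 2 up, and 10.5% of all genes shifted down and 9.08% up. Total reads or TPM gave 1 down and 6 up, and none of the 5 passed without treated mouse 10. The times and the study codes of the mice cannot be told apart, except for 1 Lipa-/- mouse with a code of its own.

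Levels were compared between genes only as TPM, which divide by transcript length. In WT livers at 12-weeks the mean TPM ran from 14.6 for Sdsl to 2764 for Gnmt, followed by Bhmt with 2444 and Hpd with 1451. Summed over the 42 genes, the members made up 13245 to 15936 TPM in WT, 7118 to 8350 in Lipa-/- and 9843 to 12205 in treated livers at 12-weeks. At 34-weeks the sums were 12127 to 15807, 3906 to 6021 and 13746 to 15505 TPM. The sums of Lipa-/- livers lay below those of WT and treated livers at both times, and at 12-weeks those of treated livers lay below WT.

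Among 52 other genes of amino acid metabolism, 50 were tested. In Lipa-/- livers 31 were lower and 4 higher than in WT at 12-weeks, and 39 were lower and 4 higher at 34-weeks, with medians of -0.93 and -1.49. Of all tested genes, 16.3% fell and 22.9% rose at 12-weeks, and 23.5% fell and 23.8% rose at 34-weeks. Suox, the sulfite oxidase that ends cysteine breakdown, was at 130.4, 182 and 180.0 CPM in WT at 34-weeks, 13.6, 16.9 and 21.1 in Lipa-/- and 129, 124 and 101 in treated mice. It differed from WT by -3.25 ± 0.26, adjusted p = 1.49e-07. Prodh2, a hydroxyproline dehydrogenase, was at 402, 264 and 223 CPM in WT and 18.9, 23.7 and 42.7 in Lipa-/- livers (-3.38 ± 0.31, adjusted p = 3.70e-07), and Ido2, another tryptophan dioxygenase, was at 37.9, 64.1 and 68.9 and 3.94, 5.26 and 9.92 CPM (-3.16 ± 0.39, adjusted p = 7.21e-06). The higher genes at 34-weeks were enzymes of synthesis, namely Phgdh and Psat1 of serine and Aldh18a1 and Pycr1 of proline. Phgdh was at 0.236, 0.473 and 0.0779 CPM in WT, where 3 reads are worth 0.117 to 0.177 CPM, and at 5.14, 3.94 and 3.53 in Lipa-/- livers (adjusted p = 0.000552). Psat1 was at 0.767, 0.473 and 0.467 and 6.24, 4.25 and 7.53 CPM (3.41 ± 0.72, adjusted p = 0.000937), and Aldh18a1 at 0.354, 1.34 and 0.817 and 7.19, 6.65 and 7.46 CPM (3.04 ± 0.46, adjusted p = 4.54e-05). In all 3 no Lipa-/- liver overlapped with WT. Psph, another enzyme of serine synthesis in the list, did overlap, with 12.8, 5.24 and 4.52 CPM in WT and 5.49, 6.14 and 9.70 in Lipa-/- livers. In treated livers at 34-weeks none of the 50 differed from WT in edgeR or DESeq2, and 2 had an unadjusted p under 0.05.

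**Figure D5:**
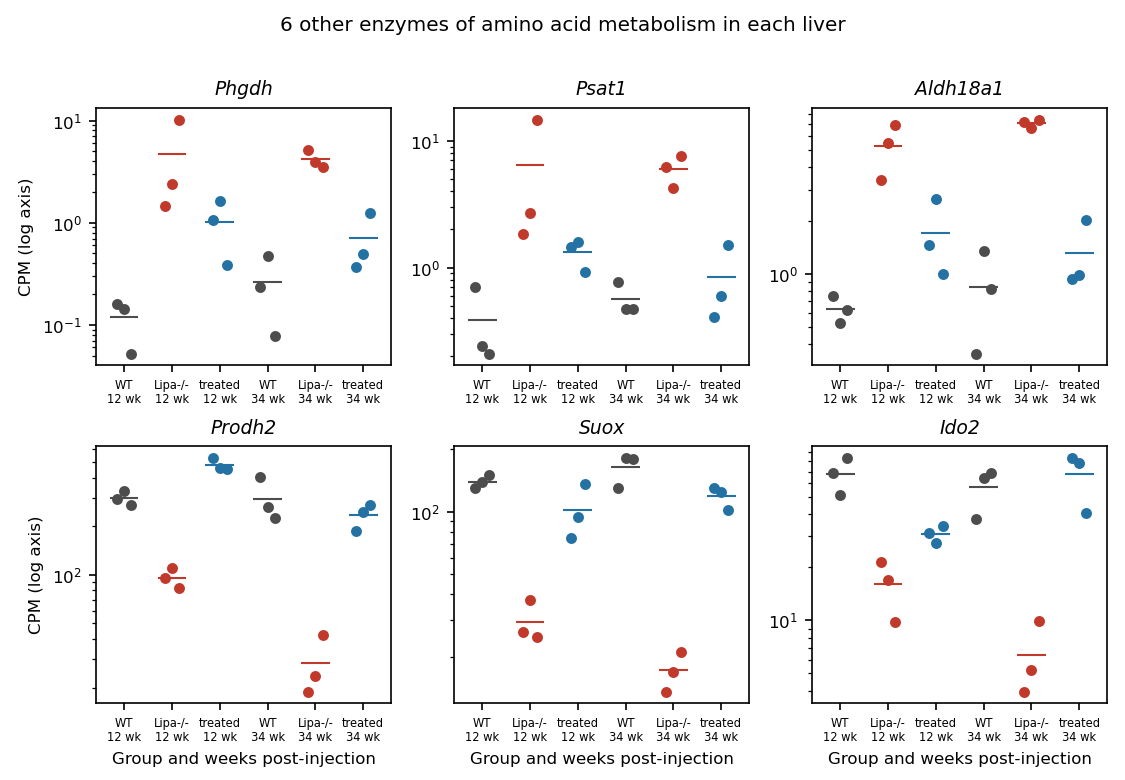
CPM on log axes of the 3 other enzymes of amino acid metabolism with the largest rise (top) and the 3 with the largest fall (bottom) in Lipa-/- livers at 34-weeks, in each mouse (points) with the mean of each group (lines). Aldh18a1 lies between 6.65 and 7.46 CPM in the 34-week Lipa-/- livers and between 0.354 and 1.34 CPM in the WT livers.

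Of 10 regulators listed for these pathways, 4 were lower at 12-weeks and 6 at 34-weeks in Lipa-/- livers, and none was higher. Of all tested genes, 16.3% and 23.5% were lower at these times. Gcgr, the glucagon receptor, had log2 fold changes of -1.25 and -2.17, Ppara, a nuclear receptor of fatty acid oxidation, -1.42 and -1.98, Cebpa, a C/EBP factor of hepatocytes, -0.82 and -1.47, and Klf15, which is known to regulate amino acid catabolism, -0.84 and -1.35, all past the test. In treated livers none of the 10 differed from WT at 34-weeks, but at 12-weeks Hnf4a (-1.81) and Cebpb (-2.11) were among those lower, and Gcgr (0.96) was higher. At 12-weeks 17.5% of all genes were lower and 19.4% higher in treated livers. Of 9 amino acid transporters, 4 were lower and 2 higher in Lipa-/- livers at 34-weeks, where 23.5% of all genes were lower and 23.8% higher. The higher ones were Slc3a2 (1.64 ± 0.23, adjusted p = 2.39e-05) and Slc7a5 (1.50 ± 0.37, adjusted p = 0.00307), which form a heterodimer that carries large neutral amino acids.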

How the data were processed

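Poly(A) RNA of 18 livers was sequenced. The authors mapped the reads to GRCm39 Ensembl transcripts with Salmon and summed them per gene with tximport. This gave the deposited estimated counts, TPM values (normalized for transcript length and depth) and mean effective transcript lengths. They tested with DESeq2 1.40.1 in R 4.3.0. The authors' own comparisons were not used. Estimated counts (19.4% not whole) were rounded, genes with more than 100 reads over all libraries were kept, and 6 group means were fitted with edgeR 4.0.16 (quasi-likelihood, TMM, R 4.3.3), with 11 comparisons and Benjamini-Hochberg adjustment. Alternatives used DESeq2 1.42.0 with length offsets, limma 3.58.1 on log2(TPM + 1), other scalings and filters, and omission of each mouse. The SE is the log2 fold change divided by the root of F. The code was tested on simulated data. An exact permutation test of 3 against 3 mice cannot give a p under 0.1, so single genes were tested only in the fit across all genes. Levels of 3 reads (0.0946 to 0.291 CPM) cover counting error only.

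The members, the role groups and the other lists were chosen with earlier results of these data known. The values in every mouse are given for the 2 members per role with the largest mean absolute log2 fold change of Lipa-/- against WT over both times, other members are given by fold change, and of the other genes of amino acid metabolism the 3 with the largest change in each direction at 34-weeks were named. The members whose values are given beyond this are Sds, Sdsl, Bckdhb, Mat1a, Prodh and Tat. They and the named regulators and transporters were chosen after their values were seen. Replicate numbers are animal numbers. Each liver was taken when its mouse was killed, so equal numbers at both times stand for different mice and were not treated as pairs. The values of 1 listed regulator are not reported here.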

Additional observations from a re-analysis of the deposited data

Results flagged for a closer look

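The difference between treated and WT livers changed from 12-weeks to 34-weeks in 5 members by a test of the change itself (edgeR, Benjamini-Hochberg adjusted over all genes). Of all genes, 10.5% shifted down and 9.08% up in the same test, so such a change was not particular to the members. The change in log2 fold change was -1.12 ± 0.33 (SE) for Aass (adjusted p = 0.0329), -1.5 ± 0.46 for Agxt2 (adjusted p = 0.0351) and -1.49 ± 0.38 for Auh (adjusted p = 0.0257), the 3 members that were higher than WT at 12-weeks. It was 1.64 ± 0.47 for Prodh (adjusted p = 0.03) and 1.51 ± 0.51 for Tat (adjusted p = 0.048), which were lower than WT at 12-weeks. No member passed without treated mouse 10 of the 12-week group, treated mouse 9 of the 34-week group, WT mouse 1 or 3 of the 12-week group or WT mouse 1 of the 34-week group.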

How the results depend on the processing

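Medians and counts below are of the 42 members. With total reads without TMM factors, hepatocyte marker scaling and TPM, the median of Lipa-/- against WT was -0.89, -1.02 and -0.76 at 12-weeks, where all genes moved to 0.49, 0.36 and 0.30, and -1.59, -1.49 and -1.49 at 34-weeks, where all genes moved to 0.60, 0.75 and 0.46. For treated against WT at 12-weeks it turned to -0.27 with total reads, -0.50 with TPM and -0.038 with GC and length trends removed (an alternative chosen after seeing the data), and at 34-weeks it was -0.0434 with TPM. For treated against Lipa-/- at 12-weeks it was 1.38 with upper quartile, 0.59 with total reads, 1.51 with RLE, 1.20 with hepatocyte markers, 1.39 with DESeq2, 0.25 with TPM and 1.34 with GC and length, and at 34-weeks 1.93, 1.53 and 1.28 with upper quartile, total reads and hepatocyte markers, and 1.45 with TPM. Treated against WT at 12-weeks gave 15 calls with TPM and 2 at an adjusted p under 0.01. Lipa-/- livers between times gave 0 with total reads, 0 with hepatocyte markers, 22 with DESeq2, 8 with TPM, 1 with GC and length, 0 with only the groups compared and 0 at an adjusted p under 0.01. Treated livers between times gave 11 past 2-fold and 9 at an adjusted p under 0.01. The change of the Lipa-/- difference gave 2 with DESeq2, and that of the treated difference gave 9 with DESeq2, 3 without a filter, 0 with only the groups compared and 0 at an adjusted p under 0.01. The cause of these shifts was not tested.

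Single members among those past the main test turned in direction. Mccc1 in Lipa-/- at 12-weeks was 0.0709 with TPM, and Bckdhb at 34-weeks was 0.026 with total reads, 0.16 with hepatocyte markers and 0.36 with TPM. For treated against Lipa-/- at 12-weeks, TPM gave -0.0267 for Hpd, -0.11 for Afmid, -0.10 for Bckdha, -0.35 for Mccc2, -0.47 for Pccb, -0.11 for Gldc and -0.35 for Uroc1, and total reads gave -0.16 for Mccc2 and -0.0695 for Uroc1.

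With each mouse left out, the counts ranged from 31 to 34 and from 38 to 41 for Lipa-/- against WT at 12- and 34-weeks, from 1 to 10 and from 0 to 0 for treated against WT, and from 26 to 31 and from 37 to 40 for treated against Lipa-/-. Between times they ranged from 0 to 0 in WT, 0 to 21 in Lipa-/- and 9 to 17 in treated livers, and the changes of the differences gave 0 to 6 and 0 to 7. The medians ranged from -1.54 to -1.21 and from -2.49 to -2.00, from 0.0451 to 0.20 and from -0.21 to -0.09, and from 1.35 to 1.61 and from 1.81 to 2.29.

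Mice of the same number at both times correlated at 0.08, -0.24 and 0.46 in WT, -0.08 and -0.25 in treated and 0.21 in Lipa-/- mice (1 shared number) in their deviations from the group means. With a block by replicate number, which joins different mice, 3 members (2 lower, 1 higher) passed between the times in treated livers and 0 in WT livers.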

Other observations

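The mean effective transcript length that the deposited files give per gene and mouse differed between groups in some members. Whether the transcripts themselves differ was not tested. Those named here were chosen after their values were seen and were not tested. For Mccc1 it was 2229 to 2250 bases in WT, 1029 to 1470 in Lipa-/- and 1066 to 1545 in treated livers at 12-weeks, and 1764 to 2263, 1239 to 1666 and 2091 to 2222 bases at 34-weeks. For Pccb at 12-weeks it was 1308 to 1674 bases in WT, 727.7 to 1472 in Lipa-/- and 1859 to 2014 in treated livers. The lowest Lipa-/- values of both genes at 12-weeks were those of mouse 5, which has a study code of its own. Without overlap with WT, the effective length of Bckdhb was lower in Lipa-/- livers at both times (log2 difference -0.33 and -0.30). That of Hal was lower in treated livers at 12-weeks (-0.63), and that of Acadsb was higher in Lipa-/- livers at both times (0.19 and 0.13). TPM values divide by these lengths and counts do not.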
